A study of Mus musculus with 51 samples.

Results

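Vtn encodes vitronectin, a glycoprotein that hepatocytes make and release into the blood. The gene was taken as 1 row of the 33773 gene symbols in the deposited expression matrix and is described in all 21 RNA libraries of the series. It was selected on its RPKM pattern over these same libraries, as a gene said to be lost only where no FoxA factor is left. Its own levels and differences are therefore given as a description, without a test. The data went against the word "only" in that account, because Vtn was also 6.58-fold lower in the liver libraries labelled HNF4a null, in which the FoxA genes were still expressed; per Alb message it was 2.56-fold lower there.

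Vitronectin binds integrins on cells through an RGD motif and takes part in the control of plasminogen activation. In plasma it also keeps assembling terminal complement complexes off membranes, and it binds the complexes that thrombin forms with its serpin inhibitors. FoxA1, FoxA2 and FoxA3 are related forkhead transcription factors that are known for opening liver enhancers, and HNF4a is a nuclear receptor that shares many of these enhancers. The series asks what adult hepatocytes express when all FoxA genes are gone.

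The 15 hepatocyte libraries form 4 groups. FoxA triple null (n = 4) comes from FoxA1L/L/FoxA2 L/L/FoxA3-/- mice that received AAV8, an adeno-associated virus, at 8 weeks of age; it carried Cre recombinase under the hepatocyte-specific Tbg promoter. FoxA3 null (n = 4) shares the FoxA3 deletion. The design text says that controls of the same alleles received a virus with GFP, and these libraries are read here as those controls, although their own label names only the genotype. FoxA1/A2_lox libraries (n = 3, lox below) keep all FoxA genes, and FoxA1/A2_Cre_alfp libraries (n = 4, Cre alfp below) lack FoxA1 and FoxA2 but keep FoxA3. In the Alfp-Cre transgene, as generally used, albumin and alpha-fetoprotein regulatory sequences drive Cre in the fetal liver, so loss there would start before birth rather than in the adult. A separate set from whole liver holds 2 libraries labelled HNF4a control and 4 labelled HNF4a null, which per the design text were depleted in adult livers. How HNF4a was deleted, and the age and sex of any animal beyond the age given above, are not stated in the labels, and nothing says which libraries came from separate animals. The p-values below measure only the spread between these libraries, which may in part be technical.

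Levels are RPKM, reads scaled by gene length and by the depth of the library, so they may be compared between genes. Differences are on the log2(RPKM + 1) scale, which understates the change of low genes. Each standard error (SE) computed here was taken over the libraries of the compared groups for Vtn, and from the limma fit for other genes. These are not alike. For Vtn the limma SE was 0.194 in Cre alfp minus lox, against 0.07 over libraries. In triple null minus FoxA3 null it was 0.179, against 0.24. A gene was called changed when its limma p-value, adjusted by the Benjamini-Hochberg method over all tested genes, was under 0.05 and its log2 difference was at least 1 in either direction. Absolute depth is unknown; relative to the shallowest library it was 2.01 to 2.43 in triple null and FoxA3 null, 2.25 to 4.08 in lox and Cre alfp, and 1 to 1.1 in liver. The hepatocyte libraries fell into 2 sets, 7 with a FoxA3 gene (lox, Cre alfp) and 8 without (FoxA3 null, triple null): in 1277 of 11500 tested genes (11.1%) the sets did not overlap, and the libraries' summed RPKM separated too, at 1040000 to 1330000 against 726000 to 922000. Any batch along that split and the FoxA3 genotype cannot be told apart, so the differences within it, triple null minus FoxA3 null and Cre alfp minus lox, carry the account; Vtn was not among the genes that separated along it. Hepatocyte identity was checked by 11 marker genes, whose summed RPKM was 57004.6 to 64116.4 in lox, Cre alfp and FoxA3 null and 37209.8 to 44245.5 in triple null. Alb averaged 28111 RPKM in FoxA3 null, 25269 in lox, 20686 in Cre alfp and 12268 in triple null. By gene the markers were mixed: 2 of the 11 were called higher and 3 lower in triple null minus FoxA3 null (4.17% and 3.95% of all tested genes were), with a median log2 difference of -0.36 against 0.05 over all. Hnf4a went against its label: the libraries labelled HNF4a null held 487 to 545 RPKM, their controls 118 to 126. The position of the deletion within the gene is not given, so this level does not check the protein, and "labelled HNF4a null" is kept throughout.

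The sequence around the start of Vtn is shown because the gene's response is set against loss of forkhead and nuclear receptor factors. It covers 250 bases before to 50 bases after the gene's start, on the plus strand of chromosome 11 at chr11:78498870-78499169, from RefSeq on GRCm38.p6, with 51.7% G and C. Capitals mark the matches found in the motif search, those of the TATA box motif in the first stretch and that of the HNF1 half-site motif in the second.
Vtn promoter: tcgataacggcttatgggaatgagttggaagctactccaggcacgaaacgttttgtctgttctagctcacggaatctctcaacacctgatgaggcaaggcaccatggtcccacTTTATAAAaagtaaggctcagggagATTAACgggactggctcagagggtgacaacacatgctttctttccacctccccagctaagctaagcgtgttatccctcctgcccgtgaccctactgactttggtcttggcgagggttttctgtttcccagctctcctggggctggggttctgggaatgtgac
Both strands were searched for each motif. The TATA box motif TATAAA matched on both strands in overlapping positions that begin at -137 and -135 from the gene's start, and 13.6% of 32851 promoter windows of this length hold it. The HNF1 half-site GTTAAT matched once, on the minus strand, from -112, and 7.1% of windows hold it. None of 4 forkhead motifs occurred: TGTTTAC (in 3.65% of windows), the variant TATTTAC (3.04% of windows), the variant TGTTTGC (5.07% of windows) and the variant TATTTGC (2.76% of windows). At least 1 of these is held by 13.5% of windows. The HNF4a motif CAAAGTCCA, present in 0.475% of windows, and the C/EBP motif TTGCNNAA, present in 10.8%, did not occur either. A match says only that these letters are in this window, and a missing match only that they are not.

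In undeleted hepatocytes Vtn was among the most abundant messages of the library. Its level was 3617, 3657 and 3780 RPKM in the 3 lox libraries, which placed it 28th to 38th of 33773 genes. In Cre alfp, where Foxa1 and Foxa2 were low, it stood at 3009, 3512, 3211 and 2805 RPKM and ranked 36th to 39th. All 4 Cre alfp libraries lay below the lowest lox library, though by little: 3512 against 3617 RPKM at the nearest pair.

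FoxA3 null libraries held 1425, 1965, 2851 and 2526 RPKM of Vtn, the widest spread of any hepatocyte group. They overlapped Cre alfp and lay below all lox libraries. In triple null the values were 13.2, 13.2, 16.6 and 17.4 RPKM, and the gene's rank fell to between 3476 and 4236. No triple null library came near any other group: its highest value was 17.4 RPKM, against 68.0 in the lowest library of any other group.

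In liver, the controls ACTGATA and ATTCCTA, which the files name by barcode, had 651 and 620 RPKM of Vtn. The libraries labelled HNF4a null had 92.4 (GAGTGGA), 144 (GGCTAC), 68.0 (GTGGCCA) and 81.2 RPKM (TAGCTTA). These groups did not overlap each other or triple null. Ordered by mean, the groups ran lox (3685 RPKM ± 84.7, SD, n = 3), Cre alfp (3134 ± 301, n = 4), FoxA3 null (2192 ± 628, n = 4), HNF4a control (635.7 ± 22.0, n = 2), labelled HNF4a null (96.5 ± 33.5, n = 4) and triple null (15.1 ± 2.23, n = 4). Cre alfp and FoxA3 null were the only neighbours in that order whose libraries overlapped. Liver holds other cells beside hepatocytes, so its lower control level is not set against the hepatocyte groups as an effect of genotype.

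**Figure D1:**
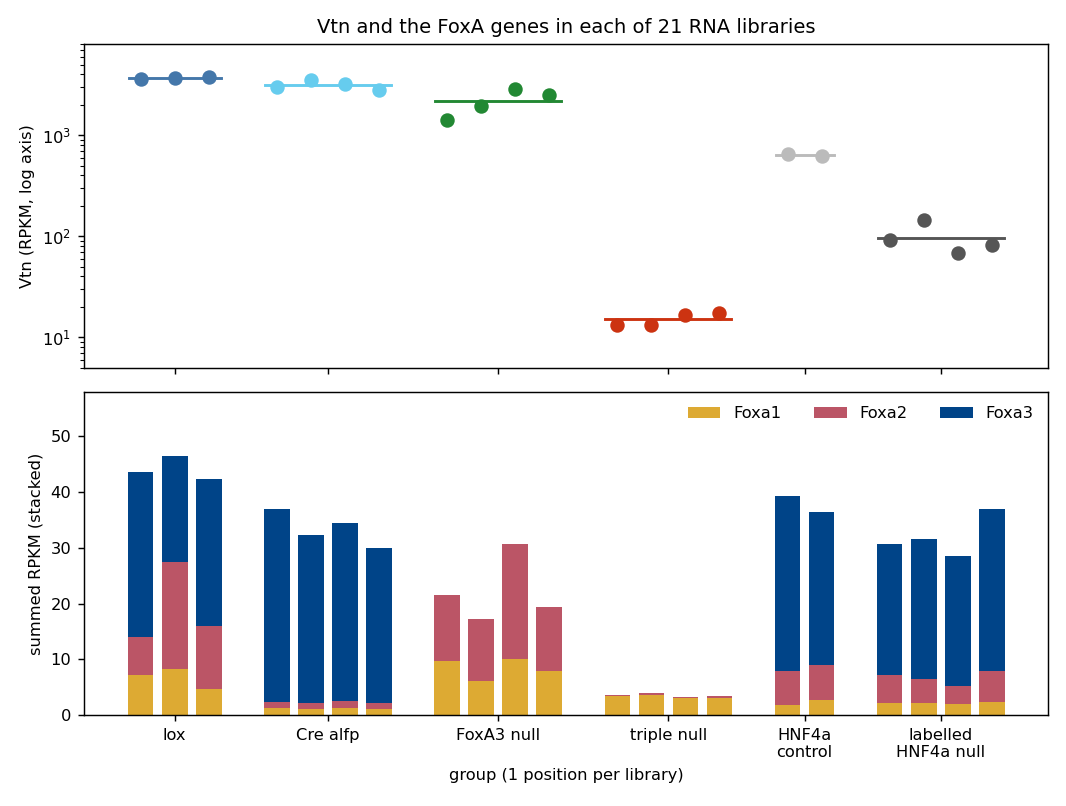
The upper panel plots Vtn in RPKM on a log axis for each of the 21 libraries, with a line at each group mean; the lower panel stacks Foxa1, Foxa2 and Foxa3 RPKM of the same libraries. The 4 triple null libraries sit at 13.2 to 17.4 RPKM of Vtn with 3.36 to 4.06 RPKM of summed FoxA message, while the libraries labelled HNF4a null sit at 68.0 to 144 RPKM of Vtn with 28.6 to 37.0.

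The FoxA genes checked the labels of the hepatocyte groups. Foxa3 was 19.0 to 29.6 RPKM in lox and 27.7 to 34.5 in Cre alfp; it was at most 0.0114 in any FoxA3 null or triple null library. Foxa2 was 6.84 to 19.2 RPKM in lox and 11.1 to 20.6 in FoxA3 null, against 0.991 to 1.26 in Cre alfp and 0.243 to 0.470 in triple null. Foxa1 was 4.71 to 8.21 RPKM in lox and 6.14 to 10.1 in FoxA3 null. It stayed higher in triple null, at 3.04 to 3.63 RPKM, than in Cre alfp, at 1.14 to 1.34 RPKM. The reads do not tell messages with the deleted part from those without it.

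Set side by side, Foxa1 and Foxa2 together were at 12.2% ± 1.16 of the lox mean in Cre alfp (SD over 4 libraries) while Vtn was at 85.1% ± 8.18. In triple null, Foxa1 and Foxa2 together were at 16.4% ± 1.33 of the FoxA3 null mean while Vtn was at 0.688% ± 0.102, which is 145-fold lower. That sum joins unlike parts: Foxa1 was at 38.6% ± 3.33 of the FoxA3 null mean, 2.59-fold lower, and Foxa2 at 2.67% ± 0.750. Cre alfp held less Foxa1 and Foxa2 message than triple null (2.14 to 2.60 against 3.36 to 4.06 RPKM summed) and about 208-fold more Vtn. All 3 family members differed between these groups without overlap: Foxa3 was 31.1 RPKM ± 2.85 in Cre alfp and at most 0.0114 in triple null, Foxa2 was 2.99-fold lower in triple null, and Foxa1 was higher there. The side of the library split differed as well, and so would the age at deletion if the transgene acted as it is generally used, which no label states; these cannot be told apart.

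On the log2(RPKM + 1) scale, Vtn in triple null minus FoxA3 null was -7.05 (SE 0.24), the lowest of all 11500 tested genes. The next was Ugt2b1, which encodes a glucuronosyltransferase, at -6.20. This rank, like those below, holds on this scale, which understates the change of lower genes. Cyp8b1, for instance, was at -5.39, although its mean went from 55.6 RPKM in FoxA3 null to 0.346 in triple null. In Cre alfp minus lox, Vtn was -0.24 (SE 0.07), which ranked 2003 from the lowest of the 11500 genes. The difference between these 2 differences was -6.81 (SE 0.25), which ranked 2 from the lowest, with Mir1894 lower at -7.11. FoxA3 null minus lox, which crosses the library split, was -0.80 (SE 0.22) for Vtn, against a median of 0.10 over all tested genes, and the rescaling of each library to the same sum moved it to -0.28. The differences from lox (-7.85, SE 0.10) and from Cre alfp (-7.61, SE 0.12) in triple null ranked 11 and 12 from the lowest. They cross the same split and share libraries with those above.

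Other genes of such abundance differed too, but few as far. Of the 44 tested genes whose FoxA3 null mean was at least that of Vtn, 27 (61.4%) lay within 1 of no difference in triple null minus FoxA3 null, fewer than the 90.9% of all 11500. Their median was -0.08, against 0.05 over all. The 11500 include low genes, whose change this scale understates and which cannot reach large negative values on it, so these shares are not like for like. Only Vtn, Ttr (transthyretin, a carrier of thyroid hormone and of retinol-binding protein) and Apoa1 (the main protein of high-density lipoprotein) among these 44 were at -5 or lower, a level that 19 of all tested genes reached. Alb, which encodes albumin, fell to 43.6% ± 8.34 of the FoxA3 null mean. Vtn per 1000 RPKM of Alb went from 42.9, 68.6, 132 and 87.2 in FoxA3 null to 0.95, 1.33, 1.13 and 1.63 in triple null, at 1.53% ± 0.353 of the FoxA3 null mean.

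Vtn within FoxA3 null was lowest in replicate 1, which also had the highest Alb, and highest in replicate 3, which had the lowest Alb and the highest Foxa2, at 20.6 RPKM against 11.1 to 11.8 in the others. Without each library in turn, the difference between triple null and FoxA3 null stayed between -7.24 and -6.91.

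The authors' deposited tables give Vtn from their own fits. The authors' deposited table of triple null against FoxA3 null has a log2 fold change of -7.23, the second lowest of its 10017 rows. Their deposited table against Cre alfp has -7.48, ranking 7 from the lowest of 9580 rows. These use the libraries described above and are not independent of them. Hepatoblasts and newborns were no part of the choice of the gene, but the adult libraries set beside them are not stated and may be among those above, so these values too are a description without a p-value. In the authors' deposited table of hepatoblasts, the fetal precursors of hepatocytes, against adult hepatocytes, Vtn was lower in hepatoblasts, with a log2 fold change of -4.26 (SE 0.28). The authors' deposited table of newborn against adult hepatocytes has 0.30 (SE 0.12), with the higher level in newborns. A further authors' deposited table sets hepatoblasts beside adult triple null, with -3.43 (SE 0.23) for Vtn; its triple null side is among the values on which the gene was chosen. Its direction is not stated in its header; it ran opposite to the hepatoblast table over 13160 shared genes (Spearman's rho -0.94 across genes, which are not independent replicates), and read that way Vtn was lower in adult triple null than in hepatoblasts. The libraries and test behind these stage tables are not given in the sources used here.

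In liver, Vtn in the libraries labelled HNF4a null was at 15.2% ± 5.26 of the control mean, with a log2 difference of -2.76 (SE 0.23). The median of all 12434 genes tested in liver was 0.34, and relative to it Vtn was at -3.10, ranking 219 from the lowest. The authors' deposited table of the same comparison, which uses these libraries, has -3.16. Foxa3 in these libraries was at 85.7% ± 9.11 of the control mean, Foxa2 at 73.8% ± 16.6 and Foxa1 at 96.9% ± 6.38. Alb was at 39.8% ± 3.95, so Vtn per Alb was at 39.1% ± 16.7 of the control mean (27.2% to 63.0%), 2.56-fold lower against 6.58-fold for Vtn itself. The summed hepatocyte markers were 15325.6 to 17624.1 RPKM against 36033.2 to 38187.9 in the controls, but by gene they were mixed: of the 11 tested, 2 were called higher and 4 lower, with a median of 0.02. The summed cholangiocyte markers were 112 to 210 against 15.3 to 16.5 RPKM, with 4 of 5 tested called higher. Neutrophil and monocyte markers summed to 35.2 to 59.2 against 27.9 to 28.1 RPKM, with 2 of 3 called higher, and 1 of 6 Kupffer cell markers was called higher; of all genes tested in liver, 8.58% were called higher and 5.95% lower. In bulk samples fewer cells of a type and less RNA per cell cannot be told apart, and the part of these shifts in the Vtn difference was not tested.

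In the hepatocyte libraries, markers of other cell types differed between groups. The summed sinusoidal endothelial markers were 6.91 to 13.0 RPKM in triple null and 22.9 to 35.1 in FoxA3 null, with 3 of 6 tested called lower (3.95% of all tested genes were), and 2 of 3 tested stellate cell and fibroblast markers were called lower too. Neutrophil and monocyte markers summed to 11.7 to 115 RPKM in triple null against 3.85 to 7.61, with 2 of 3 called higher (4.17% of all tested genes were). Ly6g, which defines neutrophils, was at 0 in every library. The triple null mean of 45.2 rests largely on the library at 115, and the liver controls, with a mean of 28.0, lie within the triple null range. Erythroid markers summed to 5.94 to 21.7 against 33.0 to 47.3, with 2 called higher and 1 lower. In triple null minus FoxA3 null, Kupffer cell markers (0 of 6 called by limma) and cholangiocyte markers (0 of 3) gave no call. Of these, 0 had an unadjusted p under 0.05. Erythroid markers also differed between Cre alfp (14.9 to 29.2 RPKM summed) and lox (81.3 to 90.8). Of 3 tested, 1 was called higher and 1 lower in Cre alfp minus lox, and 1 of 3 cholangiocyte markers was called lower. Of all tested genes, 1.29% were called higher and 1.1% lower in that comparison. The part of these markers in the differences was not tested.

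The genes that followed Vtn most closely were sought by Pearson's r over the 15 hepatocyte libraries, among 7886 genes with a mean of at least 5 RPKM in some group. These r values are a description: the points share 4 groups, and the drop in triple null sets most of each value. The median r was -0.21, 58 genes exceeded 0.95, and the 10 highest ran from 0.998 to 0.984. Among them were, in order, Ttr, Pemt (an enzyme of phosphatidylcholine synthesis), Proc (protein C, an anticoagulant), Apof (an apolipoprotein), Ces1c (a plasma carboxylesterase), Spp2 (secreted phosphoprotein 2), Ambp (alpha-1-microglobulin and bikunin), Serpina10 (an inhibitor of coagulation proteases) and Itih2 (an inter-alpha-trypsin inhibitor chain).

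Ttr came closest, with an r of 0.998. Its level spanned 6343 to 7000 RPKM in lox, and Cre alfp had 7080 to 8786, FoxA3 null 3719 to 5799 and triple null 70.9 to 106. In FoxA3 null the 4 libraries took the same order for Ttr as for Vtn, with replicate 1 lowest and replicate 3 highest. Pemt (r 0.997) had 360 to 504 RPKM in FoxA3 null and 5.77 to 10.3 in triple null. Proc matched in shape but not in size: its log2 difference in triple null minus FoxA3 null was -1.92, and those of the others named lay between -5.91 and -3.69. None of the 10 matched the depth of the Vtn difference.

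Over all 21 libraries only Ttr, Proc and Spp2 stayed among the 10 genes nearest to Vtn. In the libraries labelled HNF4a null, Ttr (log2 difference -3.71) and Spp2 (-4.68) were low as Vtn was, while Ces1c (1.40), Ambp (1.49) and Itih2 (1.24) were above their controls. Proc (-0.29), Pemt (0.14), Apof (0.17) and Serpina10 (-0.72) lay nearer to no difference.

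**Figure D2:**
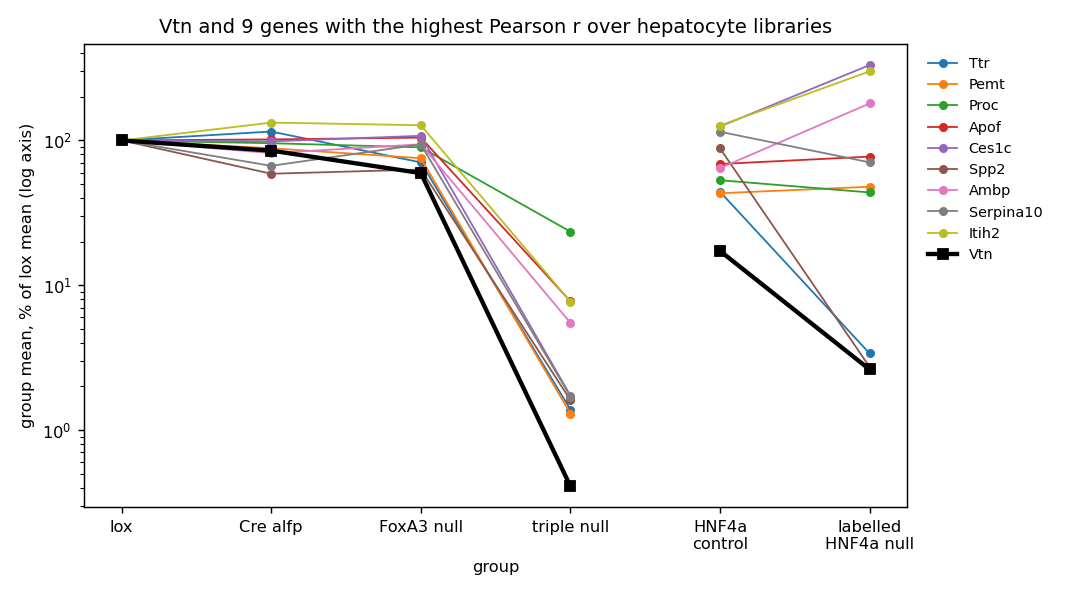
Group means of Vtn (black squares) and of 9 genes with the highest Pearson r over hepatocyte libraries, each as a percentage of its lox mean on a log axis; lines join the hepatocyte groups and, apart from them, the liver groups. Vtn drops furthest in triple null, to 0.409% of lox, and the 9 genes part ways in the libraries labelled HNF4a null.

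A choice by size rather than by shape gave a set that shared 4 genes, Ttr, Pemt, Ces1c and Ambp, with the 10 chosen by r. In triple null minus FoxA3 null, 28 genes with a FoxA3 null mean of at least 50 RPKM had a log2 difference of -4 or lower, and 8 of them stayed within 0.5 in Cre alfp minus lox: Vtn, Cyp2c50, Ces1c, Pemt, Ttr, Mug2, Cyp2c54 and Ambp. Cyp2c50 and Cyp2c54 encode cytochrome P450 enzymes and Mug2 a murinoglobulin, a protease inhibitor of plasma; these belong to multigene families whose reads may be split between near-identical copies. Their levels in FoxA3 null were more uneven than that of Vtn, for instance 338, 437, 150 and 138 RPKM for Cyp2c50 against 2.97, 1.45, 5.47 and 2.76 in triple null. In the libraries labelled HNF4a null, 4 of the 7 beside Vtn were called lower (Cyp2c50, Ttr, Mug2 and Cyp2c54), Ces1c and Ambp were called higher and Pemt was not called. The background there was 14.5% of 12434 genes called, 5.95% lower and 8.58% higher. The share of lower calls depended on scaling: it was 41.0% of calls with RPKM as deposited and 63.2% after each library was divided by its median.

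Promoter windows were found for 5 of the 10 genes nearest to Vtn by r, namely Pemt, Ces1c, Spp2, Ambp and Itih2. A forkhead motif occurred in those of Ces1c, Spp2 and Ambp, and in neither of the 2 Pemt windows nor that of Itih2; of all windows, 13.5% hold one, and the difference from that share was not tested. The Vtn window shown above, with none, fell among the latter.

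A list of 37 genes, called partners here, joined proteins that vitronectin acts with, 6 other adhesive glycoproteins and 5 genes whose proteins share its domains. Of these, 27 passed the filter on low values in hepatocytes and 30 in liver. In triple null minus FoxA3 null, 15 of the 27 were called, 13 lower and 2 higher, against 8.11% of all tested genes (3.95% lower and 4.17% higher). The 13 lower included 3 adhesive glycoproteins and 2 domain relatives, and the 2 higher included 1 domain relative. The median of the 27 was -0.97, against 0.05 over all tested genes. In Cre alfp minus lox 5 of 27 were called, 4 lower and 1 higher, with a background of 2.38% (1.1% lower, 1.29% higher) and a median of -0.26 against 0.02. The difference of these differences was called for 11, 9 lower and 2 higher, with a background of 6.82% (3.54% lower, 3.28% higher). Most of the genes called are plasma proteins of the hepatocyte, as Vtn is, and 10 of the 37 were too low in hepatocytes to test, so these counts describe the genes tested.

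Of the 4 tested integrin genes, 0 were called by limma in triple null minus FoxA3 null, which at a background of 8.11% is no result about integrins; 2 had an unadjusted p under 0.05. Itgav, the alpha chain of the vitronectin receptor, had 7.01 to 10.2 RPKM in FoxA3 null and 4.53 to 12.2 in triple null, a log2 difference of -0.05 (SE 0.25). Against lox, across the library split, it was lower both in triple null (-1.23, limma adjusted p = 0.00221) and in FoxA3 null (-1.18, limma adjusted p = 0.00527). Itgb5, a beta chain that pairs with it, had 13.1 to 14.9 RPKM in FoxA3 null and 7.97 to 10.7 in triple null; these did not overlap, and in log2 they differed by -0.59 (SE 0.11; adjusted p = 8.36e-04 by limma), short of the size asked for. Itgb3, the beta chain of platelets and endothelium, stayed at or under 0.192 RPKM in every hepatocyte library and was not tested there. In liver 0 of 6 tested integrin genes were called by limma, with a background of 14.5%, and 3 had an unadjusted p under 0.05.

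In plasminogen activation, Plaur, the receptor for urokinase that vitronectin binds, was at most 0.159 RPKM in hepatocytes and was not tested.

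Plg, which encodes plasminogen, had 882, 844, 798 and 831 RPKM in FoxA3 null and 112, 87.5, 164 and 127 in triple null. It was lower in all 4 libraries, by 2.80 on the log2 scale (difference -2.80, SE 0.15, limma adjusted p = 4.46e-09). Serpinf2, which encodes the plasmin inhibitor alpha-2-antiplasmin, fell with it, from 246 to 277 RPKM to 28.9 to 62.9 (-2.61, SE 0.17). Neither was called in Cre alfp minus lox (-0.42 and -0.61), and the difference between the comparisons passed for both, at -2.38 for Plg and -2.0 for Serpinf2.

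Thrombin and its plasma serpins, 3 of 3 tested, were called lower in triple null minus FoxA3 null, against 3.95% of all tested genes. F2, which encodes prothrombin, differed by -1.35 (SE 0.12), and Serpinc1, antithrombin, by -1.33 (SE 0.10). Serpind1, heparin cofactor II, had 264, 234, 178 and 209 RPKM in FoxA3 null and 19.8, 24.1, 27.1 and 19.1 in triple null, which is -3.24 in log2 (SE 0.13; adjusted p = 3.72e-10 by limma). In Cre alfp it was 128 to 138 RPKM and in lox 126 to 143, with a difference of -0.02. Between the comparisons Serpind1 differed by -3.22, and among the tested partners only C8b had a lower value there. Across the library split, all 3 genes were called lower in triple null minus lox, as were 5.81% of all tested genes. In triple null minus Cre alfp only Serpind1 was called (-2.52), with F2 at -0.74 and Serpinc1 at -0.83. Of all 11500 tested genes, 1184 were called there, 579 of them lower.

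The terminal complement genes, whose products assemble into the complex that vitronectin keeps soluble, divided. Hc, which encodes C5, differed by -2.42 (SE 0.13) in triple null minus FoxA3 null, and C6 by -3.33 (SE 0.27). C8b had 168, 137, 152 and 137 RPKM in FoxA3 null and 2.24, 2.22, 1.98 and 2.06 in triple null, a difference of -5.57 (SE 0.19, limma adjusted p = 5.67e-11). Its values were close together in both groups and far apart between them. C8a (0.29), C8g (-0.33), C9 (-0.45) and Clu, which encodes the other fluid-phase inhibitor clusterin (-0.02), were not called. Cd59a, a membrane inhibitor of the same complex, was called higher, at 1.05 (SE 0.15), with 79.7 to 94.4 RPKM against 39.7 to 44.2, and dropped under the minimum difference with quantile normalization (0.99) and with libraries rescaled to the same sum (0.89).

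The same 3 complement genes were called lower in Cre alfp minus lox, where Vtn barely differed. Hc went from 619 to 696 RPKM in lox to 159 to 205 in Cre alfp (-1.90, SE 0.14). C6 differed by -1.80 (SE 0.29) and C8b by -1.18 (SE 0.21), the latter at -0.97 without Cre alfp replicate 1. Between the comparisons, C6 (-1.53) and C8b (-4.39) differed further, C6 with its call lost without lox replicate 1 (adjusted p = 0.0588 by limma) and without the filter on low values (0.0539), and Hc (-0.52, limma adjusted p = 0.0934) was not called.

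In the libraries labelled HNF4a null other members of the complex were lowest. C8a had 271 and 251 RPKM in the controls and 0.631, 0.769, 0.402 and 2.17 in the labelled null libraries, a difference of -7.11 (SE 0.31, limma adjusted p = 1.06e-05). C8g went from 168 to 199 RPKM to 3.73 to 6.51 (-5.04, SE 0.20) and C9 from 198 to 242 to 11.8 to 16.9 (-3.80, SE 0.16). C6 (-1.93) and C8b (-1.93) were called lower as well, and Clu higher (2.11, SE 0.28). Hc was at -0.96 and not called. C8a, C8g and C9 were thus low in these libraries and not called in triple null minus FoxA3 null. Across the library split, C9 was called lower in triple null minus lox (-1.42, SE 0.24) and minus Cre alfp (-1.02, SE 0.22). C8a and C8g were called in neither. The difference between the liver and hepatocyte comparisons was not tested, since they were fitted apart.

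Among other adhesive glycoproteins, Fn1, which encodes fibronectin, had 197, 145, 99.8 and 119 RPKM in FoxA3 null and 42.2, 35.7, 61.4 and 44.1 in triple null, a difference of -1.57 (SE 0.21). The fibrinogen genes moved less: Fga by -1.33 (SE 0.19), Fgb by -1.05 (SE 0.14) and Fgg by -0.97 (SE 0.17), the last short of the minimum difference. Leaving out replicate 2 of FoxA3 null (-0.98) or of triple null (-0.95) ended the call of Fgb. In liver, Fn1 was higher in the libraries labelled HNF4a null (1.89, SE 0.32), against the direction of Vtn there, with library GGCTAC at 427 RPKM and the other 3 at 202 to 214.

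Hpx and Prg4 share named domains with vitronectin, Hpx its hemopexin repeats and Prg4 both hemopexin and somatomedin B. Hpx, which encodes the heme carrier hemopexin, was called lower in all 3 comparisons: -2.30 (SE 0.17) in triple null minus FoxA3 null, -1.48 (SE 0.19) in Cre alfp minus lox and -1.44 (SE 0.13) in liver. Prg4, which encodes the lubricant lubricin, had 23.4, 33.4, 31.1 and 33.9 RPKM in FoxA3 null and 95.7, 97.8, 122 and 117 in triple null, a rise of 1.80 (SE 0.18, limma adjusted p = 6.23e-06). It went the other way in liver (-1.56, SE 0.30), from 5.14 to 5.35 RPKM to 0.638 to 2.46. Enpp3, an ectonucleotide pyrophosphatase with somatomedin B domains, was lower in triple null (-2.25, SE 0.14) and in liver (-3.37, SE 0.13). Of its relatives, Enpp2 was called higher in Cre alfp minus lox (1.05, SE 0.26) and lost that call when any 1 of 6 libraries was left out, and Enpp1 was called lower in liver (-1.01, SE 0.10), a call lost without control ATTCCTA (-0.97) or without GAGTGGA (-0.96).

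In liver 12 of 30 tested partners were called in all, 10 lower and 2 higher, against the background of 14.5%. Their median was 0.09, against 0.34 over all tested genes. Serpinf2 completed the 10 lower ones, at -2.34 (SE 0.32), while Plg (-0.12), F2 (-0.17), Serpinc1 (0.23) and Serpind1 (0.75) were not called.

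**Figure D3:**
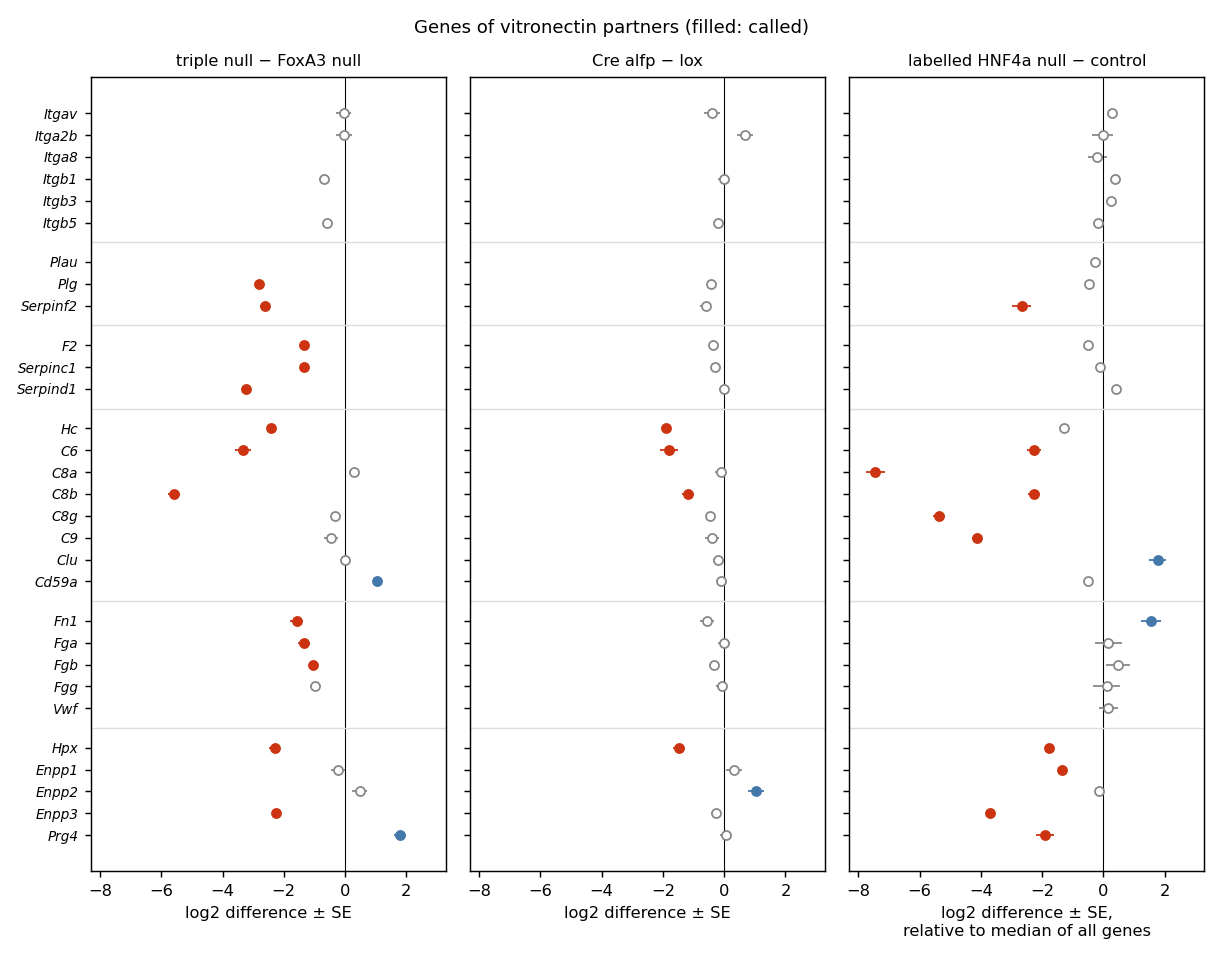
Log2 differences with SE bars for the tested partner genes reported here of vitronectin, by role from top to bottom (integrins, plasminogen activation, thrombin and its serpins, terminal complement, adhesive glycoproteins, domain relatives), in 3 comparisons; filled red points were called lower, filled blue ones higher and open ones not called. Calls in liver were made on the differences themselves, which the right panel shows less the all-gene median of 0.34. C8b stands lowest on the left at -5.57, and C8a, C8g and C9 stand lowest on the right.

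On the log2(RPKM + 1) scale, which flattens low genes, the tested genes beside Vtn differed less than Vtn did. Its 5 nearest protein-coding genes on each side, in the order of the RefSeq gene table for GRCm38.p6, are Sarm1, Slc46a1, Slc13a2, Foxn1 and Unc119 before it and Sebox, Tmem199, Poldip2, Tnfaip1 and Ift20 after it. Of these 10, 8 were tested and 0 were called by limma in triple null minus FoxA3 null, against the background of 8.11%, with differences from -0.58 (Sebox) to 0.83 (Unc119); 6 had an unadjusted p under 0.05. Without the minimum difference, 5 of the 8 had an adjusted p under 0.05, as did 29.7% of all tested genes: Sebox and Tmem199 lower, Unc119, Tnfaip1 and Ift20 higher. Sarm1 and Foxn1 were near 0 in hepatocytes and not tested; Sarm1 had 0.0597 to 0.138 RPKM in FoxA3 null and at most 0.00827 in triple null. At such levels, and at those of Sebox below, the ratio of RPKM between the groups is large but rests on values close to 0, so no fold is given.

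Slc46a1, which encodes the proton-coupled folate transporter, is the nearest expressed gene before Vtn. It had 32.2, 30.5, 29.4 and 31.9 RPKM in FoxA3 null and 21.9, 24.4, 26.5 and 25.5 in triple null, a difference of -0.33 (SE 0.13). Sebox, a homeobox gene that lies next after Vtn, was low throughout, with 1.32 to 1.55 RPKM in lox; Cre alfp had 0.558 to 1.02, FoxA3 null 0.256 to 1.16 and triple null 0.0294, 0, 0 and 0. Its 4 groups followed the order of Vtn at a level far below it. A pseudocount of 0.1 in place of 1, which understates low genes less, gave Sebox -2.40 (SE 0.38, limma adjusted p = 3.12e-04), and it was then the 1 neighbour called. Whether reads of a gene as abundant as Vtn reached its neighbour was not tested, and how overlapping reads were counted is not given in the sources used here. In triple null minus lox, across the library split, Sebox was called lower at the pseudocount of 1 as well (-1.29, SE 0.17, limma adjusted p = 3.59e-05) and Unc119 higher (1.23, SE 0.24, limma adjusted p = 0.00120), with a background of 13.5% of tested genes called (7.72% higher, 5.81% lower). Unc119 was called higher in Cre alfp minus lox (1.18, SE 0.24), and Slc46a1 lower in the libraries labelled HNF4a null (-1.20, SE 0.23).

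**Figure D4:**
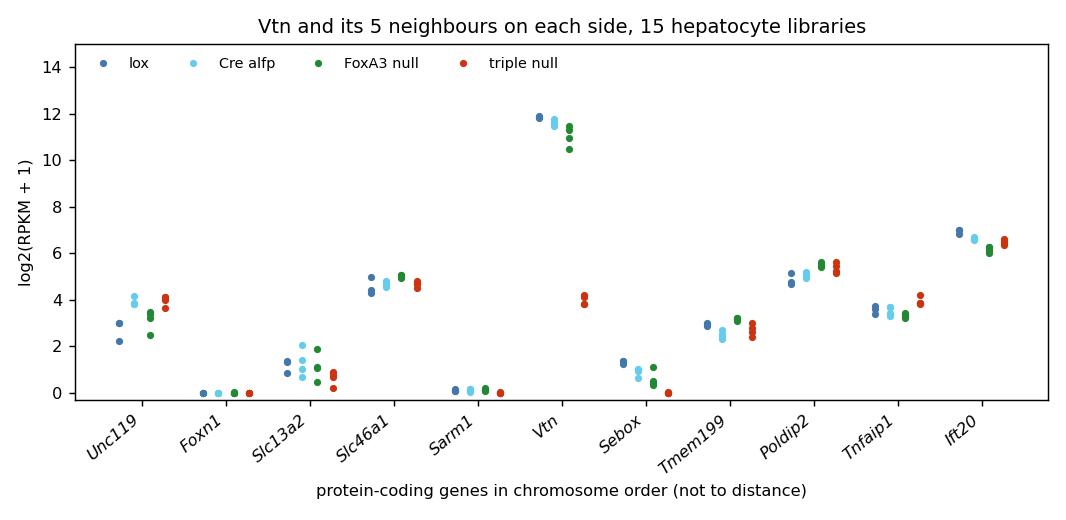
Values of log2(RPKM + 1) for Vtn and its 5 protein-coding neighbours on each side, in chromosome order but not to distance, with 1 point for each of the 15 hepatocyte libraries. The triple null points of Vtn lie far below those of its other groups; among the neighbours the differences from FoxA3 null run from -0.58 for Sebox, which is near 0 in triple null, to 0.83 for Unc119.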

How the data were processed

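RNA was sequenced from mouse hepatocytes and liver. The authors deposited 1 matrix of RPKM values. Per the submitters' processing notes, Cufflinks 2.2.1, SAMtools, DESeq2 and the build mm9 were used in the series; which step made the matrix is not given in the sources used here. Its 21 columns that matched samples or groups by name were used, and 9 others were not. The HNF4a columns are named by barcode. The authors also deposited tables of log2 fold changes with p-values and adjusted p-values, quoted as theirs. The HNF4a peaks, on mm9, were not used here, since the gene table is on GRCm38.p6. No 2 libraries were identical.

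Here, limma 3.58.1 in R 4.3.3 (lmFit, eBayes with trend) was fitted to log2(RPKM + 1), in 1 fit for the 15 hepatocyte libraries, for genes that reached 1 RPKM in 3 or more of them, and a separate fit for the 6 liver libraries, where 2 or more had to reach it. P-values were adjusted by the Benjamini-Hochberg method over all tested genes, and calls needed an adjusted p-value under 0.05 and a log2 difference of at least 1. The fit was tested on simulated data. Levels, Vtn differences and correlations were computed in Python 3.11.15. No count table was used, so counting errors and detection limits are unknown.

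The gene, the partner and marker lists and the tests were chosen with earlier results of these data known. Named genes are Vtn, the FoxA genes and Hnf4a; the 10 genes with the highest Pearson's r with Vtn; genes with a difference of -4 or lower in triple null minus FoxA3 null, a FoxA3 null mean of at least 50 RPKM and under 0.5 in Cre alfp minus lox; each partner called in a main comparison, with Itgav, Itgb3, Itgb5, Plaur, C9 and Fn1 in any case; and the 10 neighbours. Some genes that this rule selects are not reported here. Alternatives were another pseudocount, other scalings, filters and call rules, a replicate block, other measures of likeness, and leaving out each library.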

Additional observations from a re-analysis of the deposited data

Results flagged for a closer look

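In groups of 4 libraries, a value was marked when its gap to the nearest other one, as a share of the group's range, passed Dixon's 95% critical value; 59 groups of values were examined and 4 marked, and chance alone marks about 1 in 20. Foxa2 was 20.6 RPKM in FoxA3 null replicate 3, against 11.08 to 11.75 in the others. Among libraries labelled HNF4a null, GGCTAC had 427.0 RPKM of Fn1 (202.1 to 214.5 in the others) and 2.464 RPKM of Prg4 (0.6376 to 0.9239), and GAGTGGA had 2.224 RPKM of Enpp1 (2.604 to 2.666).

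For 11 partner genes, limma's interaction term passed: triple null minus FoxA3 null departed from Cre alfp minus lox. These interaction values, on the log2 scale, were lower in triple null for Plg (-2.379), Serpinf2 (-2.0), Serpinc1 (-1.036), Serpind1 (-3.221), C6 (-1.531), C8b (-4.392), Fn1 (-1.02), Fga (-1.334) and Enpp3 (-1.986). They were higher for Cd59a (1.142) and Prg4 (1.739). The calls of Serpinc1, C6 and Fn1 were lost under some of the alternatives or with a library left out.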

How the results depend on the processing

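Rescaling each library to the same sum moved the Vtn difference to -7.51 in triple null minus lox, -7.21 in triple null minus Cre alfp and -0.28 in FoxA3 null minus lox; these cross the split in summed RPKM. Leaving out 1 library gave Vtn -7.243 to -6.91 in triple null minus FoxA3 null, -0.2945 to -0.1865 in Cre alfp minus lox, -7.005 to -6.672 between them, -7.919 to -7.792 and -7.681 to -7.554 for triple null minus lox and minus Cre alfp, -0.9402 to -0.6069 for FoxA3 null minus lox and -2.975 to -2.617 in liver. Partner calls then ranged over 14 to 16, 3 to 5, 9 to 13 and 10 to 12 for the 4 comparisons in the order of the report, with 3 in Cre alfp minus lox without Cre alfp replicate 1, and neighbour calls stayed at 0. Neighbour calls were 1 with a pseudocount of 0.1 and 5 without the minimum difference. Of the 10 genes most like Vtn, 3 stayed among the nearest 10 over 21 libraries, 2 by Spearman's rho, and 8 or 9 under other scalings and the other pseudocount. Of 867 alternatives for the 43 named partner calls, 835 kept direction and call, 32 lost the call and 0 reversed; Enpp2 in Cre alfp minus lox and the interaction of Fn1 lost it most often. Absolute depth is unknown, and the liver libraries were the shallowest.

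Same-numbered libraries did not deviate together (correlations of -0.360 to 0.0177 between triple null and FoxA3 null, -0.203 to 0.116 between Cre alfp and lox). None correlated best with its own number, so no pairing by number was seen. With so few libraries in each group, this check cannot exclude one. With the replicate number as a block, Vtn was at -7.052 in triple null minus FoxA3 null, and 15, 5 and 10 partners were called in the 3 hepatocyte comparisons.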
